A study of Homo sapiens with 8 samples.

Results

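Ribosome biogenesis genes were followed in 2 established human renal cell carcinoma (RCC) cell lines cultured with or without branched-chain amino acids (BCAA). The set holds 46 genes out of 27776 listed over the tables of both cell lines. They were chosen by name, as genes of RNA polymerase I (Pol I) transcription and of ribosome assembly. The rule used no measured value, but members and roles were chosen with earlier results of these data known. All 46 had a row in each table. By role they are 10 genes of Pol I transcription, 8 of small nucleolar ribonucleoproteins (snoRNPs), 5 nucleolar scaffold proteins and helicases, 8 of the small subunit processome, 3 of pre-40S maturation and export and 12 of large subunit processing. The 769-P and CAKI-1 cells, both clear cell RCC by their labels, were kept for 16 hours in medium that held all 3 BCAA (0.17 mM of valine, with 0.38 mM of both leucine and isoleucine) or none. Total RNA was sequenced in 2 libraries per condition, 8 in all. Before that, 769-P cells were maintained in RPMI and CAKI-1 cells in MEM. The study's methods describe a single BCAA-depleted medium for RCC cells, made from RPMI free of amino acids with dialyzed serum.

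A ribosome is built mostly in the nucleolus. Pol I, brought to the ribosomal DNA by UBTF, the SL1 complex of TAF1 proteins and RRN3, makes 1 long precursor RNA, which snoRNPs modify while processing factors cut it and fold it into a small and a large subunit that are then exported. The pathway takes up much of the amino acids and energy of a growing cell and is known to be controlled by nutrient signals and by the transcription factor MYC.

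Each value below is a normalised read count, which is the reads of a gene divided by a size factor of its library. Between 30979773 and 64256834 reads lay on the listed genes of a library. In 769-P the libraries with BCAA were deeper (64256834 and 55829324 reads) than those without (39062721 and 40130258). With reads thinned to 30979773 per library, 13 members were higher and 8 lower in 769-P, where all reads gave 18 and 8. In CAKI-1 13 were higher and 3 lower, where all reads gave 16 and 3. No count over all genes is given here for thinned reads. Each table was normalised separately, so levels are compared within a cell line. Errors after ± are standard errors of a limma fit on log2(value + 1) with n = 2 libraries per condition, and a gene was called when its adjusted p was under 0.05 over all genes tested. The study's methods speak in general of independent experiments for cell culture work. Its figure legend gives n = 3 for the RNA-seq, where 2 libraries per condition were available here. No label says that these libraries came from separate cultures, so p-values may measure only technical spread. An exact permutation test of 2 against 2 could not go below p = 0.333. Of 11 kidney and RCC markers, 10 were listed for 769-P and 9 for CAKI-1. PAX8, KRT8, KRT18, VIM, CDH6 and NNMT had values of 376 or more in all 8 libraries, while NDUFA4L2, a clear cell RCC marker, had 1 to 3 reads per library in 769-P, MME had 2 to 24 reads in CAKI-1 and LHX1 was low in both. PAX2 was listed for 769-P, and CA9 was not analysed here. The 5 immune markers summed to under 17 in every library. The 6 endothelial and fibroblast markers summed to 336 and 308 with BCAA and 251 and 263 without in 769-P, where PDGFRB was the 1 called higher. In CAKI-1 they summed to 146807 and 122018 with and 99527 and 117256 without, nearly all of it COL1A1, and COL1A1 and PDGFRB were called higher, while COL3A1 had 4, 0, 0 and 0 reads. The part of these markers in the results on ribosome genes was not tested.

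In 769-P, 18 of the 46 genes rose with BCAA (39.1%) and 8 fell (17.4%), while 20 were not called. Over all 22391 genes tested, 20.3% were called higher and 18.2% lower. Among the 11855 genes with a mean of at least 100, which include 45 of the 46, 34.1% were called higher and 28.9% lower, so that the members' share of rises lay near that of other well expressed genes. The median log2 fold change of the 46 was 0.00, against -0.02 over all genes tested. Both libraries with BCAA lay above both without for 21 members (45.7%) and below them for 15. Of the 22391 genes tested, 7516 (33.6%) lay above and 7492 below. These take in genes with few reads, and the shares among genes with a mean of at least 100 were not counted. With quantile normalization, 55.6% of the members' calls in 769-P were rises, against 69.2% without it. Of the calls over all genes, 50.4% were rises with it and 52.7% without it.

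In CAKI-1, 16 members rose (34.8%), 3 fell (6.52%) and 27 were not called. The share of rises stood against 10.8% over the 21347 genes tested and 18.7% of the 11720 with a mean of at least 100, and the share of falls against 9.05% and 15.5%. The members' median was 0.16 (all genes tested, -0.01), and 38 of 46 had a positive value. Both libraries with BCAA lay above both without for 29 members, or 63%, against 28.9% of all genes tested. That 28.9% takes in genes with few reads, and the share among genes with a mean of at least 100 was not counted. Of the members' calls, 84.2% were rises, and 75% with quantile normalization. Of the calls over all genes, 54.5% were rises, and 50.5% with quantile normalization.

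Dropping a library cost most calls. Without 769-P with BCAA replicate 1 or 2, 6 or 7 members were higher and 4 lower, and without either 769-P library lacking BCAA 3 were higher and 2 lower. UBTF, WDR12, PA2G4, NOP14 and NOB1 were called in each of these 4 fits. Without any 1 of the 4 CAKI-1 libraries limma called 0 members and 0 genes in all, where 11 to 21 members were higher and 3 lower at an unadjusted p under 0.05 and edgeR called 8 to 20 higher and 3 lower. Every rise in either line was under 1.5-fold, and the falls past that size were those of NOB1 in both lines and TAF1D in CAKI-1. Calls lost under 1 of 13 alternatives were those of FBL, NOP10 and NOP16 in 769-P and of BOP1, DKC1, NIP7 and PA2G4 in CAKI-1, and those lost under more are named with their genes.

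**Figure D1:**
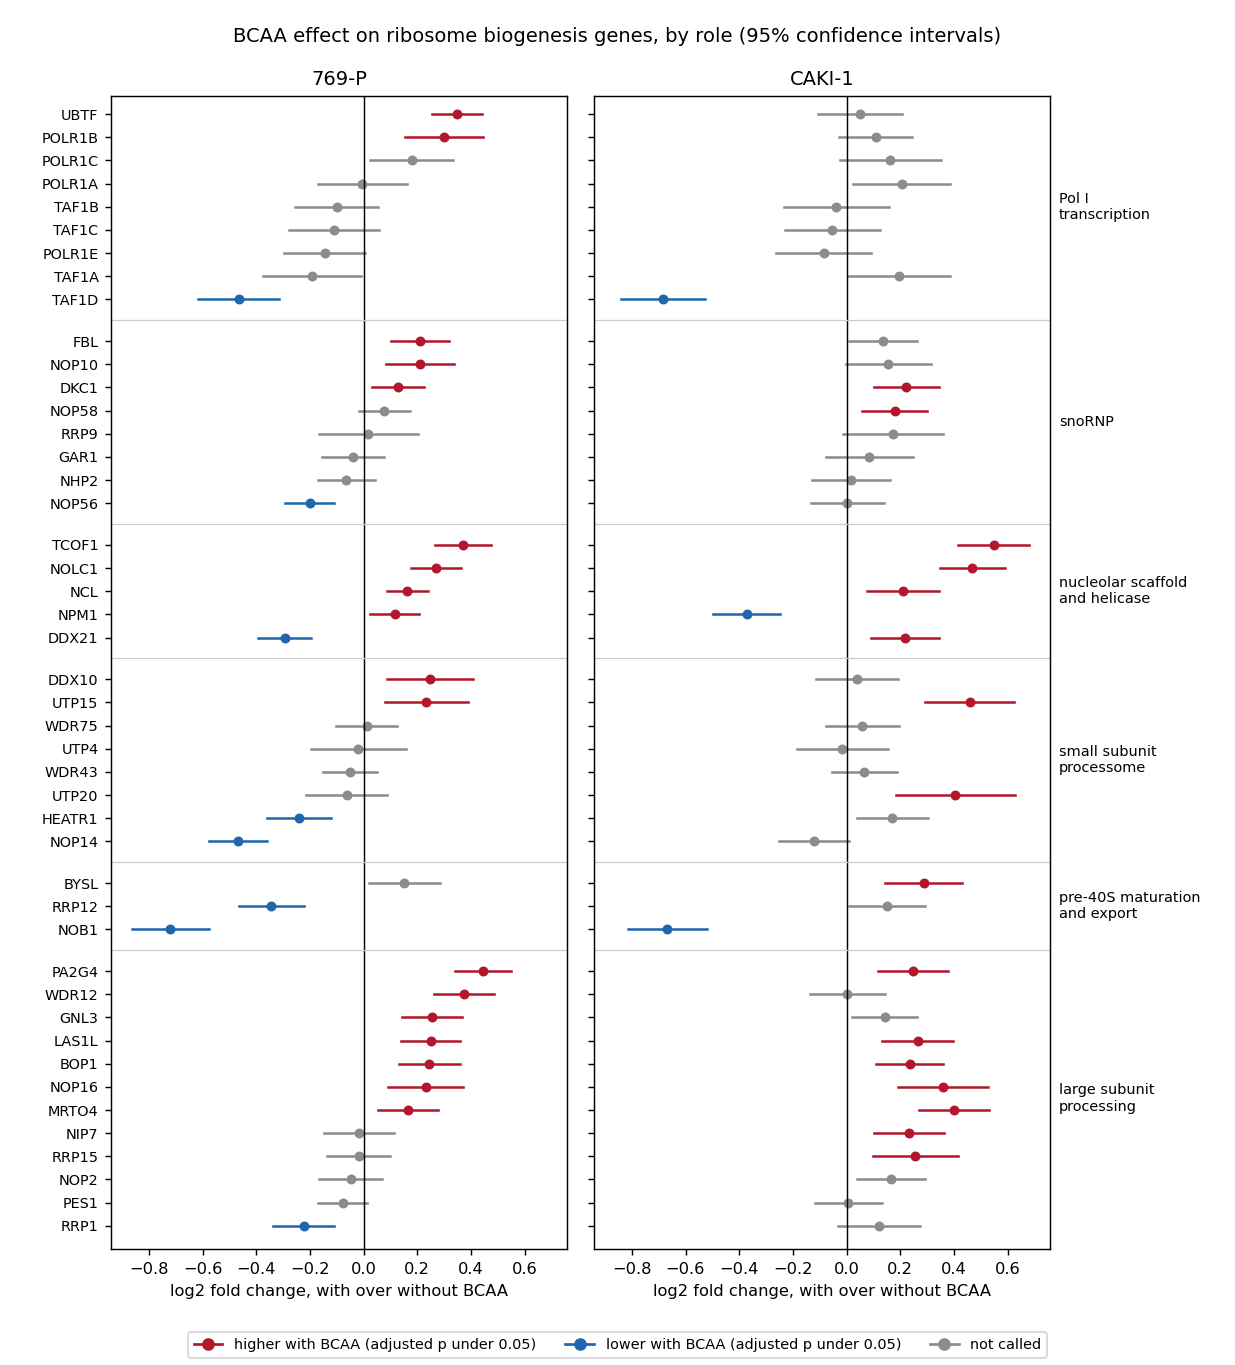
BCAA effect on 45 members in 769-P (left) and CAKI-1 (right), grouped by role, with the log2 fold change (with over without BCAA) on the horizontal axis, points for the limma estimate and lines for its 95% confidence interval (RRN3 had too few reads to be drawn). The large subunit group lies mostly to the right of 0 in both cell lines. NOB1 is farthest to the left in 769-P, followed by NOP14 and TAF1D, and TAF1D and NOB1 are in CAKI-1.

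Counts in this and the next role groups stand beside the shares of all genes with a mean of at least 100. These were 34.1% higher and 28.9% lower in 769-P, and 18.7% and 15.5% in CAKI-1. Of the 10 Pol I transcription genes 2 rose and 1 fell in 769-P, and 1 fell in CAKI-1. TAF1D, a subunit of the SL1 promoter factor, was the only one called in both. In 769-P it measured 1366 and 1496 with BCAA and 2032 and 1919 without, and in CAKI-1 2329 and 2443 with BCAA and 4068 and 3619 without. All 4 libraries with BCAA lay below those of the same line lacking it. Its log2 fold change was -0.47 ± 0.07 in 769-P (adjusted p = 0.000156, limma) and -0.69 ± 0.07 in CAKI-1 (adjusted p = 7.23e-05). TAF1D carries 8 snoRNA genes inside it, and its exons overlap those of MED17, CEP295 and C11orf54 on the other strand. The strand setting of the counting is not given in the sources used here, so reads of such partners cannot be told apart. The same limit holds for all 19 members whose exons overlap those of a gene on the other strand. Besides TAF1D they are POLR1C, UBTF, TAF1A, TAF1C, NHP2, NOP14, UTP4, UTP15, HEATR1, NOB1, RRP12, NOP16, WDR12, PES1, GNL3, PA2G4, NIP7 and MRTO4. The part of such reads in their results was not tested.

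UBTF, which binds the ribosomal DNA and keeps it open, showed 11019.9 and 10751 with BCAA and 8489.8 and 8619 without in 769-P, a rise of 0.35 ± 0.04 (adjusted p = 3.33e-05). In CAKI-1 it gave 7167 and 6177 with BCAA and 6464 and 6383 without, where the groups overlapped and the log2 fold change was 0.05 ± 0.07 (95% confidence interval -0.11 to 0.21). POLR1B, the second largest subunit of the enzyme, rose by 0.30 in 769-P (adjusted p = 0.00309) and was not called in CAKI-1 (0.11). POLR1A, the largest subunit, had values of 6722 and 5492 with BCAA and 6045 and 6150.0 without in 769-P, with the groups overlapping. Its CAKI-1 values were 5427 and 4808 with BCAA and 4108 and 4782 without, all higher with BCAA, yet the difference of 0.20 ± 0.08 did not pass (adjusted p = 0.11). TAF1A, another SL1 subunit, counted 719 and 765 with BCAA and 816 and 880.5 without in 769-P and 798 and 800.5 with BCAA and 714 and 683 without in CAKI-1. The groups stood apart in opposite directions, and neither effect was called (log2 -0.19 and 0.19). POLR1C, POLR1E, TAF1B and TAF1C were not called in either line, with log2 values from -0.15 to 0.18.

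RRN3, the factor that ties Pol I to its promoter, had only 2 and 11 reads with BCAA and 6 and 2 without in 769-P, and 2 and 3 against 2 and 0 in CAKI-1. No fold change is given for it. The pseudogene named after it, RRN3P3, took 336 and 346 reads with BCAA and 331 and 286 without in 769-P, and 273 and 343 against 311 and 253 in CAKI-1. These reads are not scaled for depth. The normalised values of RRN3 and RRN3P3 together were 256 and 305 with BCAA and 419 and 352 without in 769-P. That sum fell by -0.46 ± 0.14 (adjusted p = 0.0192, limma). In CAKI-1 the sums were 268 and 288 with and 297 and 326 without (-0.16 ± 0.13, adjusted p = 0.433). How reads shared with this copy were placed is not given in the sources used here, so the level of RRN3 is uncertain.

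The snoRNP proteins rose in 3 of 8 cases in 769-P with 1 fall, and in 2 of 8 in CAKI-1 with none. Fibrillarin (FBL), the methyltransferase of the box C/D particles, measured 13726 and 12460.0 with BCAA and 11370.2 and 11228 without in 769-P. Each library with BCAA exceeded those without, a rise of 0.21 ± 0.05 (adjusted p = 0.00483). Its values in CAKI-1 were 10373 and 11196 with BCAA and 9751 and 9866 without, again apart but not called at 0.14 ± 0.06 (adjusted p = 0.131). Dyskerin (DKC1), the pseudouridine synthase of the box H/ACA particles, was the member of this group that rose in both lines. It went from 7911 and 8235 without BCAA to 8868 and 8774 with it in 769-P, a log2 fold change of 0.13 ± 0.04 (adjusted p = 0.0371), a call lost under 4 of 13 alternatives. In CAKI-1 the change was from 7042 and 6931 to 8298 and 8004, or 0.22 ± 0.05 (adjusted p = 0.0147). NOP10, a small H/ACA protein, rose in 769-P (0.21, adjusted p = 0.0125), and NOP58, a core C/D protein, in CAKI-1 (0.18, adjusted p = 0.0406, lost under 4 of 13 alternatives).

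NOP56, the partner of NOP58 in the C/D core, was the 1 that fell. In 769-P it read 9926 and 10099 with BCAA and 11530.5 and 11493 without, lower in both libraries with BCAA, at -0.20 ± 0.04 (adjusted p = 0.00184). In CAKI-1 the counts of 5564 and 6115 with BCAA and 5762 and 5878 without overlapped, and the log2 fold change was 0.00 (95% confidence interval -0.13 to 0.14). The H/ACA proteins NHP2 and GAR1 and the U3 snoRNP protein RRP9 were not called in either line, with log2 values between -0.06 and 0.17.

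All 5 nucleolar scaffold and helicase genes were called in both lines, 4 higher and 1 lower each time, but the gene that fell was not the same. TCOF1 (treacle), a scaffold that holds Pol I factors at the ribosomal DNA, showed the largest rise of the group in each line. Its counts were 12771 and 11806 with BCAA and 9428 and 9574 without in 769-P and 9258 and 8525 with BCAA and 6148 and 6002 without in CAKI-1. Groups did not overlap in either line. The log2 fold changes were 0.37 ± 0.05 (adjusted p = 5.12e-05) and 0.55 ± 0.06 (adjusted p = 9.75e-05). NOLC1, a chaperone of snoRNPs that also binds treacle, reached 16324 and 15462 with BCAA and 13174 and 13209.9 without in 769-P and 18795 and 17758 with BCAA and 13228 and 13167 without in CAKI-1. It rose by 0.27 ± 0.04 (adjusted p = 0.000285) and 0.47 ± 0.05 (adjusted p = 0.000161). Nucleolin (NCL), an abundant RNA-binding protein of the nucleolus, rose by 0.16 ± 0.04 and 0.21 ± 0.06 (adjusted p = 0.00274 and adjusted p = 0.0325), the second call being lost under 4 of 13 alternatives.

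Nucleophosmin (NPM1), a histone and ribosome chaperone, and DDX21, a helicase that works on Pol I transcripts and snoRNAs, moved in opposite directions in the 2 lines. NPM1 counted 50345 and 54112 with BCAA and 48101 and 48228 without in 769-P and 46721 and 44276 with BCAA and 58291 and 59496 without in CAKI-1. Its libraries with BCAA were the higher pair in 769-P and the lower pair in CAKI-1. The log2 fold changes were 0.12 ± 0.04 (adjusted p = 0.0459) and -0.37 ± 0.06 (adjusted p = 0.00085), and the rise in 769-P lost its call under 7 of 13 alternatives. DDX21 gave 22438 and 20686 with BCAA and 26223 and 26618 without in 769-P, against 27734 and 25788 with BCAA and 22558 and 23422 without in CAKI-1. Here the fall was in 769-P (-0.29 ± 0.04, adjusted p = 0.000213) and the rise in CAKI-1 (0.22 ± 0.06, adjusted p = 0.0203). Both differences between lines passed the test given below.

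NPM1 has many pseudogenes, which GENCODE 29 names after it. The 20 with reads in 769-P held 139% of the reads of NPM1 itself, and the 18 in CAKI-1 held 139.8%. With their values added, the row became 122202 and 127809 with BCAA and 114116 and 115040.0 without in 769-P and 110581 and 106464 with BCAA and 143360.0 and 139212 without in CAKI-1. The log2 fold changes were then 0.13 ± 0.04 and -0.38 ± 0.06, which left the opposite directions as they were. PA2G4 was the other member with many such reads (54.5% and 53.7% of its own), and its sums gave 0.45 ± 0.04 and 0.27 ± 0.06. For NHP2 the copies held 8.46% and 7.71%, and for the other members with copies, RRN3 aside, under 1%.

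**Figure D2:**
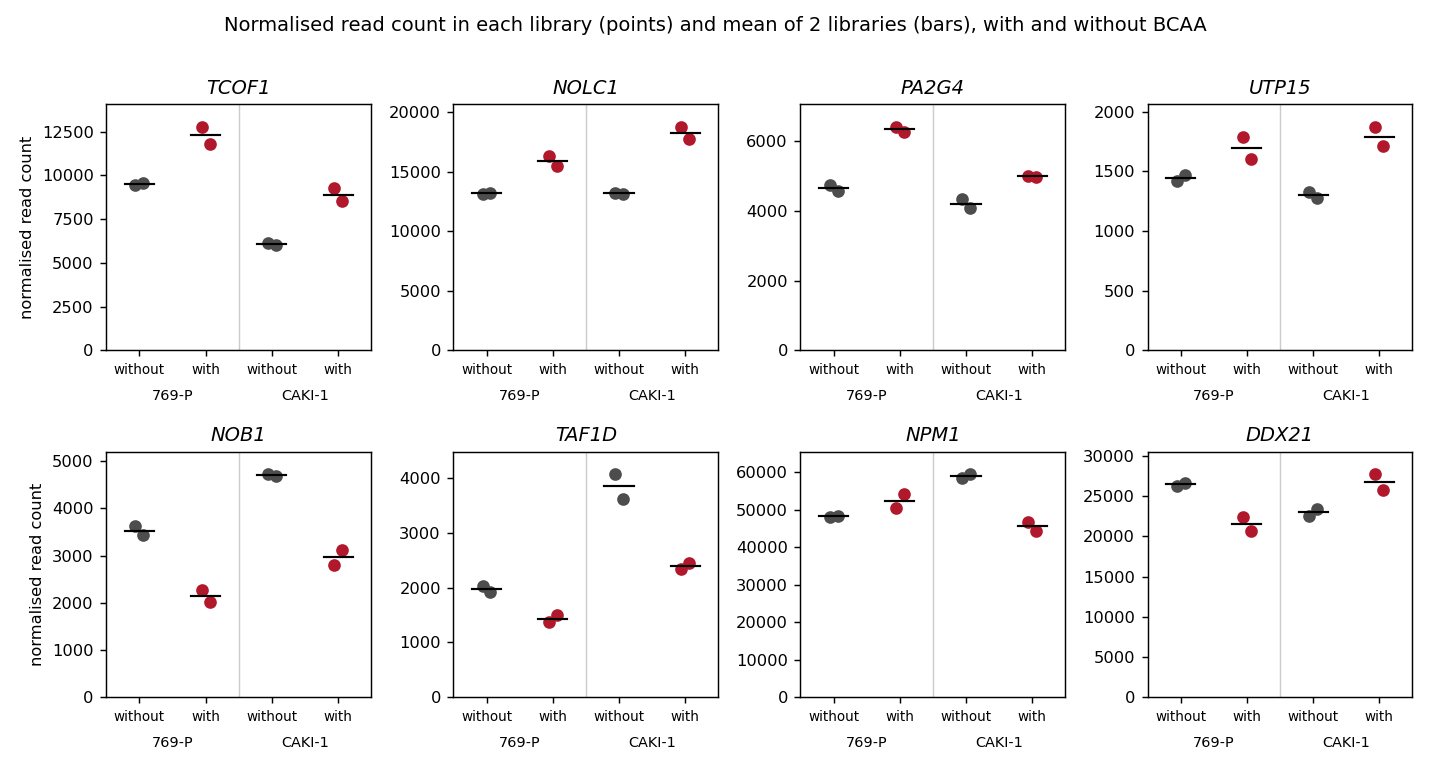
Normalised read count (vertical axis, from 0) of 8 members in each of the 8 libraries, grouped as without and with BCAA in 769-P (left of each panel) and CAKI-1 (right), with points for libraries and short bars for the mean of 2. TCOF1, NOLC1, PA2G4 and UTP15 are higher with BCAA in both lines, NOB1 and TAF1D are lower in both, and NPM1 and DDX21 go opposite ways.

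The small subunit processome is the large particle that folds and cuts the early part of the precursor. In 769-P 2 of its 8 genes rose and 2 fell, and in CAKI-1 2 rose. UTP15 was the 1 called in both lines. It measured 1788 and 1607 with BCAA and 1416 and 1466 without in 769-P and 1875 and 1709.9 with BCAA and 1331 and 1275 without in CAKI-1. No library with BCAA overlapped those without. The log2 fold changes were 0.23 ± 0.07 (adjusted p = 0.0196, lost under 3 of 13 alternatives) and 0.46 ± 0.08 (adjusted p = 0.00145). Exons of UTP15 overlap those of ANKRA2 on the other strand, a limit shared with the members listed beside TAF1D above.

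NOP14 fell in 769-P, from 4850.4 and 4701 without BCAA to 3472 and 3435 with it (-0.47 ± 0.05, adjusted p = 9.87e-06). Its CAKI-1 values of 3796 and 3869 with BCAA and 4266 and 4066 without were also lower with BCAA but not called (-0.12 ± 0.06, adjusted p = 0.196). HEATR1, a very large scaffold protein of the particle, had 9116 and 8178 with BCAA and 10018 and 10394 without in 769-P, lower in each library with BCAA, and fell there (log2 fold change -0.24 ± 0.05, adjusted p = 0.00349). In CAKI-1 it stood at 8743 and 8374 with BCAA and 7310.4 and 7909 without, higher in each library with BCAA, at 0.17 ± 0.06 (adjusted p = 0.0707). UTP20, another very large scaffold protein, counted 4396 and 3730.1 with BCAA and 4176 and 4286 without in 769-P, where the groups overlapped (-0.06 ± 0.07). It rose in CAKI-1 from 2319 and 2835 to 3698 and 3120.3 (0.41 ± 0.10, adjusted p = 0.015, lost under 2 of 13 alternatives).

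DDX10, a helicase, read 1518 and 1572 with BCAA and 1231 and 1376 without in 769-P. Both libraries with BCAA were higher, by 0.25 ± 0.07 (adjusted p = 0.0174, lost under 3 of 13 alternatives). In CAKI-1 its values of 1751 and 1672 with BCAA and 1697 and 1637 without overlapped. WDR43, WDR75 and UTP4 were not called in either line, with log2 values between -0.05 and 0.07.

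In pre-40S maturation and export, NOB1 had the largest change of all 45 members with enough reads in 769-P. NOB1 is the endonuclease that makes the final cut of the small subunit RNA. It measured 2266 and 2017 with BCAA and 3619.5 and 3430.3 without in 769-P. In CAKI-1 it measured 2808 and 3124 with BCAA and 4726 and 4682 without. Every library with BCAA was far below those without, and the log2 fold change was -0.72 ± 0.07 (adjusted p = 2.82e-06) in 769-P, 0.61 times the level without BCAA, and -0.67 ± 0.07 (adjusted p = 5.3e-05) in CAKI-1, 0.63 times. The fall was called under all 13 alternatives in each line.

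RRP12, a factor that carries pre-ribosomes to the cytoplasm, had 4209.6 and 3834 with BCAA and 5043 and 5162 without in 769-P and 7061 and 6432 with BCAA and 5893 and 6263 without in CAKI-1. Both libraries with BCAA were lower in 769-P (-0.34 ± 0.06, adjusted p = 0.00031) and higher but not called in CAKI-1 (0.15 ± 0.06, adjusted p = 0.135). Bystin (BYSL), which binds the pre-40S particle, showed 2259 and 2176 with BCAA and 2058 and 1937 without in 769-P, not called (0.15 ± 0.06, adjusted p = 0.0694). Its counts in CAKI-1 were 2420.5 and 2477 with BCAA and 2060.4 and 1955 without, a rise of 0.29 ± 0.07 (adjusted p = 0.00992).

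In large subunit processing, the largest group, 7 of 12 genes rose in each line, with a fall of RRP1 in 769-P and none in CAKI-1. Its medians were 0.20 and 0.23. Of the 7, 5 rose in both lines, namely PA2G4, LAS1L, BOP1, NOP16 and MRTO4. PA2G4 (EBP1), which binds the large subunit, counted 6404 and 6262 with BCAA and 4741 and 4561 without in 769-P and 4987 and 4978 with BCAA and 4323 and 4068 without in CAKI-1. The groups were well apart, with rises of 0.45 ± 0.05 (adjusted p = 1.09e-05) and 0.25 ± 0.06 (adjusted p = 0.0122). MRTO4, an assembly factor that holds the place of the ribosomal stalk, gave 3513 and 3432 with BCAA and 3139 and 3052 without in 769-P and 3915 and 3835 with BCAA and 2965 and 2909.6 without in CAKI-1. It rose by 0.17 ± 0.05 (adjusted p = 0.0236, lost under 2 of 13 alternatives) and 0.40 ± 0.06 (adjusted p = 0.000769). LAS1L, which acts in cutting the spacer between the large subunit RNAs, rose by 0.25 and 0.26, and NOP16, a nucleolar assembly protein, by 0.23 and 0.36.

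BOP1, PES1 and WDR12 form 1 complex, PeBoW, that is needed to process the large subunit RNA, and BOP1 alone was called in both lines. It rose by 0.25 ± 0.05 in 769-P and 0.24 ± 0.06 in CAKI-1 (adjusted p = 0.00255 and adjusted p = 0.0131). WDR12 measured 3659 and 3753 with BCAA and 2823 and 2895 without in 769-P and rose there by 0.37 ± 0.05 (adjusted p = 9.47e-05). In CAKI-1 it measured 2396 and 2423 with BCAA and 2364 and 2448 without, with overlap and a log2 fold change of 0.00 (95% confidence interval -0.14 to 0.14). PES1 was not called in either line, at -0.08 (-0.17 to 0.01) and 0.01 (-0.12 to 0.13).

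RRP1, a factor of early large subunit processing, had 2890.3 and 2794 with BCAA and 3308 and 3329 without in 769-P. It was lower in both libraries with BCAA (-0.22 ± 0.05, adjusted p = 0.00456). In CAKI-1 the values were 2900.1 and 3181 with BCAA and 2885 and 2704 without, not called at 0.12 ± 0.07. Nucleostemin (GNL3), a nucleolar GTPase, rose in 769-P (0.25, adjusted p = 0.00151), while RRP15 and NIP7 rose in CAKI-1 (0.26 and 0.23), the call of RRP15 being lost under 3 of 13 alternatives. NOP2, an RNA methyltransferase, was not called in either line (-0.05 and 0.16).

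Taking both lines, 10 members (21.7%) rose in each, where 8.53% of the 19406 genes tested in both did. They were DKC1, NCL, NOLC1, TCOF1, UTP15, NOP16, BOP1, PA2G4, LAS1L and MRTO4. The 8.53% takes in genes with few reads, and the share among genes with a mean of at least 100 was not counted. NOB1 and TAF1D fell in both, NPM1 and DDX21 were called in opposite directions, and 15 were called in neither. Of the 19406 genes, 1131 fell in both and 9924 were called in neither. Another 131 rose in 769-P and fell in CAKI-1, and 125 did the reverse. A further 7 members rose and 5 fell in 769-P alone, and 5 rose in CAKI-1 alone. Over all genes these counts were 2609, 2706 and 490. A call in only 1 line does not show a difference. As a description over the 46 members, which share their libraries, the log2 fold changes of the lines had Pearson's r = 0.50 and Spearman's rho = 0.41 (0.28 and 0.34 over all 19406 genes).

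**Figure D3:**
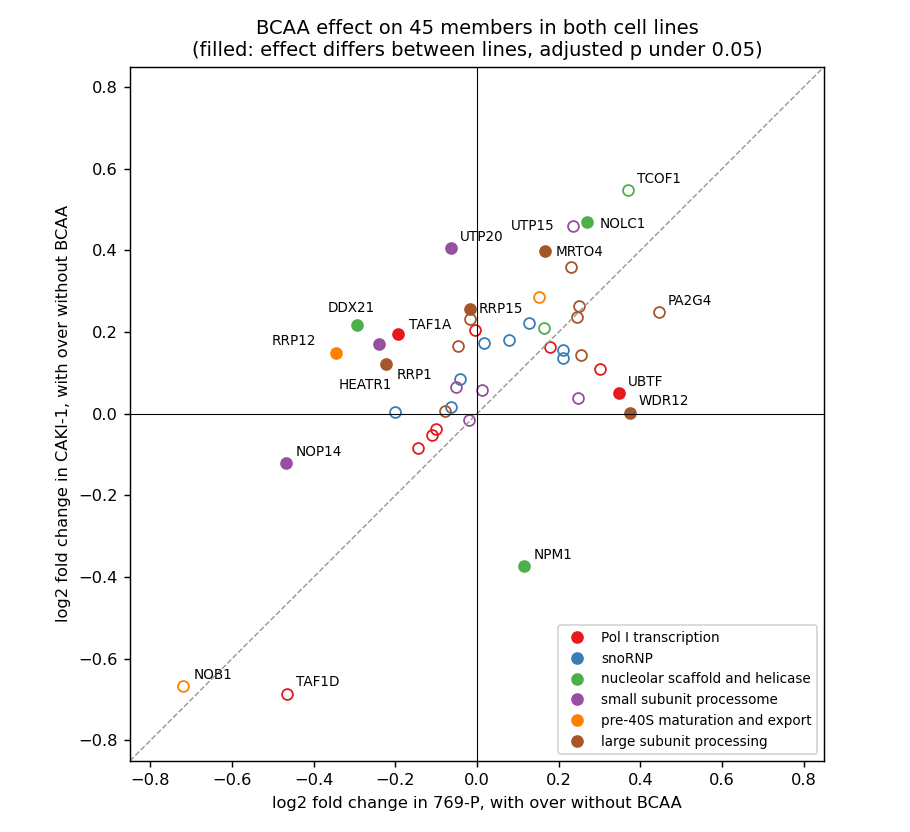
Log2 fold change with over without BCAA in 769-P (horizontal) against CAKI-1 (vertical) for 45 members, coloured by role, with filled points where the difference between lines was called, open points where it was not, and a dashed line of equal effects. NOB1 and TAF1D lie at the lower left, NPM1 at the lower right, and DDX21 with RRP12, HEATR1, TAF1A and RRP1 at the upper left.

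The difference of the BCAA effect, tested as the interaction of 1 limma fit over the 8 libraries, was called for 13 members. In 3 of them (6.52%) the effect in 769-P lay above that in CAKI-1, and in 10 (21.7%) below it. Of the 19406 genes tested, these shares were 10.9% and 10.1%. They take in genes with few reads, and the shares among genes with a mean of at least 100 were not counted. The median difference over the 46 was -0.10. The 3 above were NPM1 (0.49 ± 0.07, adjusted p = 0.000199), WDR12 (0.37 ± 0.08, adjusted p = 0.00335) and UBTF (0.30 ± 0.09, adjusted p = 0.0258). Below were DDX21 at -0.51 ± 0.07 (adjusted p = 0.000246) and RRP12 at -0.49 ± 0.09 (adjusted p = 0.00118). HEATR1 differed by -0.41 ± 0.08 (adjusted p = 0.00328), NOP14 by -0.35 ± 0.07 (adjusted p = 0.00377) and RRP1 by -0.34 ± 0.09 (adjusted p = 0.0116). UTP20 (-0.47 ± 0.14), TAF1A (-0.39 ± 0.12), RRP15 (-0.27 ± 0.09), MRTO4 (-0.23 ± 0.07) and NOLC1 (-0.20 ± 0.07) had adjusted p between 0.0311 and 0.0489 and lost the call under 3 to 5 of 12 alternatives each.

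Of the 13, NPM1, WDR12, DDX21, RRP12, HEATR1 and NOP14 were called in each of the 8 fits that left out 1 library. Without 769-P with BCAA replicate 2 the count was 6, without CAKI-1 without BCAA replicate 1 or 769-P without BCAA replicate 2 it was 7, and without 769-P without BCAA replicate 1 or CAKI-1 without BCAA replicate 2 it was 8. For TAF1D and NOB1, the genes that fell in both lines, the differences were 0.22 and -0.05 (95% confidence intervals 0.000521 to 0.44 and -0.26 to 0.16) and were not called.

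**Figure D4:**
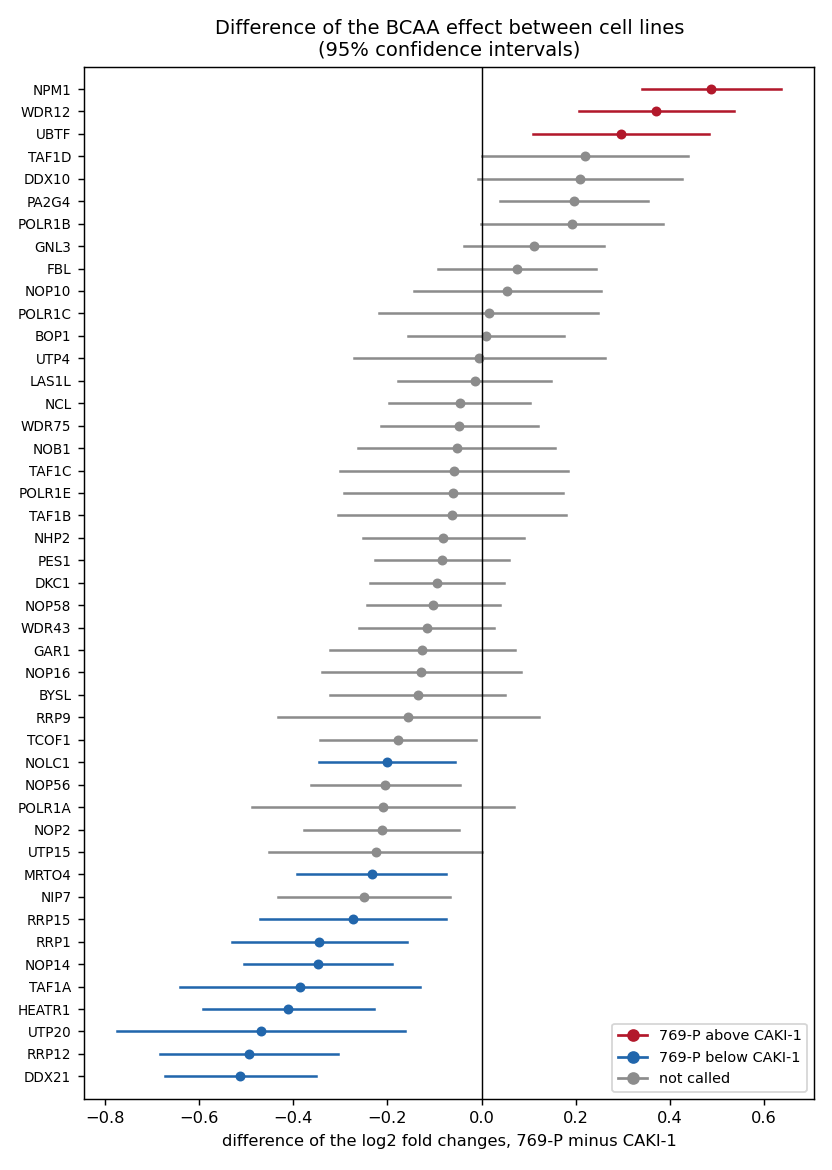
Difference of the log2 fold changes (769-P minus CAKI-1, horizontal axis) for 45 members in order of size, with points for the estimate and lines for its 95% confidence interval. The 3 red members lie above 0, the 10 blue ones below, and the rest were not called.

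The other genes of the pathway, 100 by a list chosen with earlier results of these data known, are given by their counts. In 769-P 39 of 98 tested rose and 22 fell, and in CAKI-1 32 of 96 rose and 7 fell, with medians of 0.10 and 0.13. Beside these counts and those of the lists below, 34.1% of all genes with a mean of at least 100 were higher in 769-P and 28.9% lower. In CAKI-1 18.7% were higher and 15.5% lower. Small subunit factors rose in 16 of 36 cases in 769-P and 12 of 35 in CAKI-1, with 4 and 2 falls. For large subunit factors the counts in 769-P went the other way, with 6 rises and 15 falls among 35, while CAKI-1 had 7 rises and 3 falls. Of the RNA exosome, the nuclease that trims the precursor, 6 of 12 rose in 769-P and 4 in CAKI-1, with 1 fall each.

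Pol I subunits outside the set rose in 6 of 8 cases in 769-P and 5 of 7 in CAKI-1, with 1 fall each. Beside POLR1 genes the list holds POLR2E, POLR2F, POLR2H, POLR2K and POLR2L, which Pol I shares with the other nuclear polymerases. Its counts are thus not of Pol I alone. The largest rise among those called was that of POLR2L. It counted 5621 and 6045 with BCAA and 2642 and 2619 without in 769-P and 4124 and 4261 with BCAA and 2651 and 2862 without in CAKI-1. It rose by 1.15 ± 0.05 and 0.61 ± 0.06. POLR1D fell in both lines (-0.41 and -0.58). Of the export factors, RANBP1 and RCC1, which serve the Ran cycle, rose by 0.98 and 0.75 in 769-P, and RANBP1 by 0.77 in CAKI-1. EXOSC9, an exosome subunit, rose by 0.63 in CAKI-1. Among the largest falls were NOP53 and RSL24D1 of the large subunit in 769-P (-0.88 and -0.82), NOP53 in CAKI-1 (-0.63) and EXOSC5 of the exosome in both (-0.68 and -0.77).

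MYC, the known activator of many of these genes, was lower with BCAA in both lines. Its values were 8188 and 7749 with BCAA and 13063 and 13648 without in 769-P and 10640.2 and 11142 with BCAA and 12834 and 13424 without in CAKI-1. The groups were apart, with log2 fold changes of -0.75 ± 0.05 (adjusted p = 1.08e-07) and -0.27 ± 0.06 (adjusted p = 0.00563). The difference between lines was -0.48 ± 0.07 (adjusted p = 0.000321). Of the members, 10 rose in both lines, while NOB1 and TAF1D fell in both as MYC did. In 769-P 18 members rose and 8 fell, and in CAKI-1 16 rose and 3 fell. The part of MYC in these results was not tested.

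Together the 46 members took 0.721% and 0.720% of the reads with BCAA and 0.684% and 0.677% without in 769-P. The CAKI-1 shares were 0.828% and 0.798% with and 0.758% and 0.758% without. That share was higher with BCAA in each line, with no overlap, a pattern for which 2 against 2 libraries cannot give a p under 0.333. NCL and NPM1 made up between 33.3% and 37.8% of the members' reads. In 769-P the share of this pair was 0.247% and 0.260% with BCAA and 0.228% and 0.225% without, and that of the other 44 was 0.473% and 0.460% with and 0.456% and 0.452% without. In CAKI-1 the share of the pair did not separate by condition (0.287% and 0.267% with, 0.287% and 0.286% without), while the other 44 went from 0.472% and 0.473% to 0.541% and 0.530%.

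Set per kilobase of annotated exon, the levels within each line ran over a wide range. NPM1 and NCL were the highest in both lines, at 13113 and 9559 normalised reads per kilobase in 769-P and 13635 and 8520.3 in CAKI-1. FBL, NOP10, DDX21 and NOLC1 followed. Of the Pol I genes, UBTF stood highest, at 1389.9 and 936, POLR1C at 187 and 162 and TAF1C at 245 and 164 were near the lower end, and RRN3 was last. The annotated exons may include transcripts these cells do not make, which lowers the level of genes with many of them.

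The members lay on 19 chromosomes, and few were neighbours. On chromosome 16, UTP4, NIP7 and NOB1 followed each other with gaps of 107 and 399 kb. NIP7 rose in CAKI-1, NOB1 fell in both lines, and UTP4 was not called. NOP58 and WDR12 lay 571 kb apart on chromosome 2, and RRP9 and GNL3 739 kb apart on chromosome 3. Inside 7 members lay snoRNA genes (TAF1D, NOP56, NOP58, DKC1, NCL, WDR43 and GNL3). Of these hosts 3 rose and 2 fell in 769-P, and 3 rose and 1 fell in CAKI-1, with medians of 0.08 and 0.14. The other 39 had 15 rises and 6 falls, and 13 and 2, with medians of -0.01 and 0.16. Among all genes with a mean of at least 100, 34.1% rose and 28.9% fell in 769-P, and 18.7% and 15.5% in CAKI-1.

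The 250 bases before the start of each gene were searched for 3 short motifs on both strands in the RefSeq promoter table (GRCh38.p14), which held 40 of the 46 members. POLR1E, NOP58, NOLC1, TCOF1, RRP12 and BOP1 had no entry. CACGTG, the E-box that MYC binds, was in 3 of 40 (7.5%), against 6.49% of all 27305 promoters and 9.17% of the 8212 whose gene had a mean of at least 100 in both lines. The ETS-type motif CCGGAAG was in 12 of 40 (30%), against 8.82% and 17.9%. It was found before 5 of the 15 members with an entry that rose in 769-P and 2 of the 7 that fell, and in CAKI-1 before 4 of 12 and 1 of 3. TGATGNAA, written after the amino acid response element of ATF4, was in none of the 40, against 3.19% and 1.21%. A match is a string of letters and not a shown binding site.

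Promoter stretches are given for 4 members, those with results that stand out and a window with enough bases outside annotated UTRs. NOB1 fell in both lines, DDX21 went opposite ways, and HEATR1 and UTP20 had among the largest differences between lines. Each is given 5' to 3' on the strand of the gene, up to 14 bases before the start for NOB1, 42 for DDX21, and up to the start itself for the others. Capitals mark the motifs above, which are an ETS-type match in DDX21 and an E-box in UTP20.
NOB1 (chr16:69754941-69755176, minus strand): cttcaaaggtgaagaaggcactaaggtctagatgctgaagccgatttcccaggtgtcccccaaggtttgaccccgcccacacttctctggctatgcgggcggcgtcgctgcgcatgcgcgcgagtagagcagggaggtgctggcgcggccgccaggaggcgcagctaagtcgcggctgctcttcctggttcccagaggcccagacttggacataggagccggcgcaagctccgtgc
DDX21 (chr10:68955920-68956127, plus strand): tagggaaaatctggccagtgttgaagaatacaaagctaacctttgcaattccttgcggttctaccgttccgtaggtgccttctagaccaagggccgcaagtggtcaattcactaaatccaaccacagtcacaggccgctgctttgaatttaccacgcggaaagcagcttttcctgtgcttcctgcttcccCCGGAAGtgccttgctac
HEATR1 (chr1:236604517-236604766, minus strand): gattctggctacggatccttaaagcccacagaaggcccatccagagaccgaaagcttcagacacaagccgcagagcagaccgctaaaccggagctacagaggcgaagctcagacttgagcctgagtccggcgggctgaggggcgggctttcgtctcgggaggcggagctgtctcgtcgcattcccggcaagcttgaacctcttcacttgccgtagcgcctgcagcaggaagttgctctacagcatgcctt
UTP20 (chr12:101279855-101280104, plus strand): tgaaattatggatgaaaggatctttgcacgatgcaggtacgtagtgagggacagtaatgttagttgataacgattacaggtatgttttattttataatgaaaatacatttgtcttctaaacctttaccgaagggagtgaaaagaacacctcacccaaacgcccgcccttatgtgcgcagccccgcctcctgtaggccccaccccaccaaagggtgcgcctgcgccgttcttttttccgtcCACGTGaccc
Neither NOB1 nor HEATR1 held a match in its stretch. The E-box of UTP20 began 10 bases before the start and the ETS-type match of DDX21 60 bases before it.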

How the data were processed

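RNA-seq of 769-P and CAKI-1 cells with or without BCAA was analysed from 8 libraries, grouped by the cell line and treatment in their labels. The authors deposited 1 table of normalised signal per cell line (25431 and 24190 genes), that is, read numbers per gene scaled by 1 size factor for each library. Every value (100%, within 0.01 of a read) came out as whole reads, so reads were recovered and the total per library is their sum. The submitters' processing notes name Trim Galore, TopHat2 2.1.0, SAMtools 1.3.1, HTSeq 0.6.0, DESeq, DESeq2 and hg38, and the annotation is not given in the sources used here. Ensembl identifiers were matched to symbols, positions and exons through GENCODE 29 (GRCh38).

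Genes whose mean value reached 1 were tested within each cell line on log2(value + 1), using limma 3.58.1 under R 4.3.3 with a trended prior. Benjamini-Hochberg adjusted p under 0.05 was the threshold, with no limit on fold change. The added 1 shrinks the fold changes of genes with few reads. The plan named edgeR for counts, and limma was used because the values are normalised. The difference between lines was the interaction of 1 fit over 8 libraries. Replicates differed by more than counting noise (chi-square over its degrees of freedom, 3.26 to 11.9), so each library counted as 1 sample. Libraries with the same replicate number showed little shared deviation (correlation of deviations -0.09 in 769-P and 0.06 in CAKI-1). This cannot tell whether they were prepared together.

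The members, roles, other lists and tests were chosen with earlier results of these data known. Values in every library are given for the highest and lowest member of each role group in each line and the 10 with the largest difference between lines, and, of other pathway genes, for MYC and POLR2L. The other pathway genes named are the 3 highest and 3 lowest called ones per line. Alternatives were 2 other pseudocounts, 2 other filters, 3 scalings, the spread estimated over all 8 libraries, a replicate block, edgeR 4.0.16 and DESeq2 1.42.0 on recovered reads, stricter thresholds and leaving out each library, and, added after seeing the data, reads thinned to 30979773 per library and pseudogene reads added. The scripts were tested on simulated data. Confidence intervals and adjusted p-values cover the spread between libraries only.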

Additional observations from a re-analysis of the deposited data

Results flagged for a closer look

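For 13 of the 46 members, the BCAA effect differed between 769-P and CAKI-1 by a test of the difference itself, the interaction term of the limma fit. The values are log2 fold changes in 769-P minus those in CAKI-1. The effect in 769-P was the higher one for NPM1 (0.49), the ribosome chaperone, WDR12 (0.37), of the large subunit complex PeBoW, and UBTF (0.30), the factor that binds the ribosomal DNA. It was the lower one for the helicase DDX21 (-0.51), the export factor RRP12 (-0.49) and the small subunit proteins UTP20 (-0.47), HEATR1 (-0.41) and NOP14 (-0.35). The same held for TAF1A (-0.39) of the SL1 complex, for RRP1 (-0.34), RRP15 (-0.27) and MRTO4 (-0.23) of the large subunit, and for NOLC1 (-0.20), the snoRNP chaperone. Among these, NPM1 and DDX21 were called in opposite directions, while NOLC1 and MRTO4 rose in both lines by different amounts.

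The maintenance medium differed between the lines (RPMI and MEM), and depth went with the condition in 769-P. The part of either in these differences was not tested. With reads thinned to the smallest library, 11 differences were called. With groups of 2, no test of single libraries far from the others was made.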

How the results depend on the processing

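The members' calls depended on scaling, on the threshold and on single libraries. With quantile normalization 10 members were higher in 769-P, 9 in CAKI-1 and 4 in both. Over all genes, 3837 were then higher in 769-P and 1417 in CAKI-1, against 4536 and 2312 without it. Counts over all genes are given in this paragraph for quantile normalization only. With median centering 8 differences between lines were called. Libraries with the same replicate number showed little shared deviation. With a replicate block, 8 differences were called, 3 above and 5 below 0, 16 members were higher in 769-P, 14 in CAKI-1 and 8 in both, and NPM1 and DKC1 in 769-P and NCL and NOP58 in CAKI-1 were not called. Thinned reads left 6 members higher in both lines. At an adjusted p under 0.01, 11 were higher in 769-P, 7 in CAKI-1 and 3 in both, with 6 differences. With a fold change of at least 1.5, limma called 0 higher in either line or in both, 1 lower in 769-P and 0 differences, and edgeR, DESeq2 and an unadjusted p under 0.05 also gave 0 higher. Leaving out 1 library gave 3 to 7 members higher and 2 to 4 lower in 769-P, 0 higher and 0 lower in CAKI-1, 0 to 4 higher in both, and 6 to 12 differences. In these fits the lone library of a condition is assumed to vary like the others. In CAKI-1, 11 to 21 were then higher at an unadjusted p under 0.05.

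Small effects changed sign. POLR1A in 769-P (-0.0051) became 0.035 with median centering, 0.012 with total read scaling, 0.025 in edgeR and 0.0023 in DESeq2, and ran from -0.15 to 0.14 without 1 library. UTP20 in 769-P ran from -0.18 to 0.055 without 1 library. In CAKI-1, UBTF became -0.00079 with quantile normalization and ran from -0.056 to 0.16 without 1 library. NOP56 became -0.047 with quantile normalization and -0.0075 in edgeR, and ran from -0.065 to 0.071. DDX10 became -0.0075 with quantile normalization. WDR12 became -0.029 with quantile normalization and -0.0097 in edgeR, and ran from -0.023 to 0.028. The difference of NOB1 ran from -0.14 to 0.031. The cause of these changes was not tested. The median over all genes moved by under 0.1 with each scaling. The 2 libraries per condition limit every estimate, and RRN3 without its pseudogene had too few reads for any.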
